A study of Homo sapiens with 42 samples.

Results

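Accessible chromatin at 10 inflammatory cytokine and chemokine genes was followed through drug tolerance and bromodomain inhibition in 4 lung cancer lines. The genes were IL6, LIF, IL1A, IL1B, CXCL1, CXCL2, CXCL5, CXCL8, CCL2 and CCL20, and their members were all regions that the authors' annotated tables assign to them. There were 129 such regions of 242490 annotated regions, namely 28 for PC9, 39 for H1975, 18 for HCC827 and 44 for HCC2935. All 129 passed the filter on low counts and were tested. Each region was 502 bases wide, and regions of different lines whose starts lay within 251 bases were read as 1 locus, which gave 65 loci, of which 6 were annotated in all 4 lines and 27 in 1 line. IL6 had 27 regions, LIF 22, CXCL8 20, IL1B 15, IL1A 12, CCL20 11, CCL2 10, CXCL1 6, CXCL2 4 and CXCL5 2. Loci are named by gene and by the distance from the middle of the region to the RefSeq start of that gene, which says nothing about which gene a region acts on.

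These genes encode secreted proteins. IL6 and LIF signal through receptors that share gp130 and activate STAT3, IL1A and IL1B signal through the interleukin 1 receptor to NF-kappa-B, the CXCL chemokines attract neutrophils through CXCR1 and CXCR2, CCL2 attracts monocytes through CCR2, and CCL20 attracts CCR6-bearing lymphocytes and dendritic cells. In epithelial cells they are typical inducible genes, kept poised with promoters and distal enhancers that bind NF-kappa-B, AP-1 and C/EBP factors. AZD5153 is a small-molecule bromodomain inhibitor.

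The assay was ATAC-seq, which reads open chromatin by transposase insertion, in 4 EGFR-mutant lines of lung adenocarcinoma (PC9, H1975, HCC827 and HCC2935). Drug tolerant persister (DTP) cells had been held for 24 days in osimertinib, an inhibitor of EGFR, at 500 nM, and the combination (combo) had received 500 nM osimertinib for 21 days and then 150 nM AZD5153 for 3 days. Control cells had been kept 21 days without drug and then 3 days in DMSO, and AZD5153 cells, made from PC9 and H1975, had the same 21 days without drug and then 3 days in 150 nM AZD5153, so that control and AZD5153 cells never met osimertinib and DTP and combo cells are what was left after at least 21 days in it. Whether combo cells stayed in osimertinib while AZD5153 was present is not in the labels. Combo against DTP is written below as AZD5153 in persisters. An effect of 3 days without osimertinib cannot be told apart from one of AZD5153 in that contrast. The labels call the 3 libraries of each of the 14 groups biological triplicates.

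Each library held 3989287 to 5193390 counts for PC9, 6200672 to 10062505 for H1975, 1724680 to 4242868 for HCC827 and 3968690 to 8066287 for HCC2935, and levels are given as CPM, the count divided by this total and scaled by 1e6. The annotated regions had median levels of 6.42 CPM (PC9), 5.97 (H1975), 10.04 (HCC827) and 6.63 (HCC2935). Libraries of 1 group differed by 0.961 to 1.05 times the variance of counting noise in PC9 and by 0.968 to 1.26 times in H1975, against 1.18 to 1.83 times in HCC2935 and 1.21 to 9.56 times in HCC827. p-values in PC9 and H1975 therefore rest on a spread close to counting error alone, and the counts over all members there are also given with the 3 libraries of a group summed to 1 and with the dispersion of HCC2935 (biological coefficient of variation 10.1%). In HCC827 libraries with the same replicate number deviated together, so values with the replicate number as a block are set beside the main ones. In the H1975 libraries labelled AZD5153 whole chromosome stretches were shifted, and the median log2 change of all tested regions in the same 10 Mb is given where it matters. All 5 epithelial markers had a region within 1 kb of their start in every line, while 1 of 4 leukocyte markers had one in PC9 and H1975 and 0 of 4 in HCC827 and HCC2935. Of 3 fibroblast markers 2 had one in PC9 and H1975 and 1 in the other lines, and of 2 endothelial markers 2, 2, 0 and 1 had one in PC9, H1975, HCC827 and HCC2935.

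The promoters of IL6, CXCL1, CXCL2, CXCL8 and IL1A are shown because in at least 1 line an annotated region overlaps each of these starts and because they share the letters of inducible factor motifs. The sequences are the 160 bases before the RefSeq start (GRCh38.p14, 5′ to 3′ on the strand of the gene), with matches to the NF-kappa-B letters GGNNTTTCC or the AP-1 letters TGANTCA, on either strand, in capitals.
IL6 (chr7:22727040-22727199, plus strand): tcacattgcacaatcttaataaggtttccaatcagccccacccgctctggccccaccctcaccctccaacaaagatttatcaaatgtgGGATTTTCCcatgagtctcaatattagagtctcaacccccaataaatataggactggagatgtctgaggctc
CXCL1 (chr4:73869233-73869392, plus strand): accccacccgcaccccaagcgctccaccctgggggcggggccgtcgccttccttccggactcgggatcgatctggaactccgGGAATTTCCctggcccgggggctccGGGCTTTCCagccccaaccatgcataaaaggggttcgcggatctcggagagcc
CXCL2 (chr4:74099196-74099355, minus strand): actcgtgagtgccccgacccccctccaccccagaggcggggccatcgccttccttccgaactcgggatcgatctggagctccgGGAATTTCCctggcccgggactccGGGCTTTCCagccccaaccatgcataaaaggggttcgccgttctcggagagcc
CXCL8 (chr4:73740409-73740568, plus strand): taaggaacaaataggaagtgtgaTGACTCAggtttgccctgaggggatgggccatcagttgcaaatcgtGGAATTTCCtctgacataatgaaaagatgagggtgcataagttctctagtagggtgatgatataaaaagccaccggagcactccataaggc
IL1A (chr2:112784494-112784653, minus strand): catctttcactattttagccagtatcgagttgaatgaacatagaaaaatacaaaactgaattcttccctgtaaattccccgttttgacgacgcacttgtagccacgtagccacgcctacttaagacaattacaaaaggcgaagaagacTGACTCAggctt
The search covered 250 bases before the start. NF-kappa-B letters were found in the promoters of IL6, CXCL1, CXCL2, CXCL5, CXCL8 and, on the other strand, CCL20, with 2 matches each in CXCL1 and CXCL2. They occurred in 5.48% of the 35116 promoters searched. AP-1 letters were found in IL1A and CXCL8 (6.57% of promoters) and C/EBP letters, TTGCNNAA on either strand, in IL6, IL1B and CXCL2 (9.05% of promoters). The identical match GGAATTTCC lies 78 bases before the start in CXCL1, 77 in CXCL2, 90 in CXCL5 and 91 in CXCL8. No motif overlapped another. The table held no promoter of LIF or CCL2.

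Persisters gained accessibility at some of these regions and lost it at others, with as many higher as lower in H1975 and more higher than lower in HCC2935. In DTP cells against controls, 5 of the 28 PC9 regions were called higher and 4 lower, where 16.5% of annotated regions were higher and 21.5% lower (edgeR quasi-likelihood test, Benjamini-Hochberg adjusted p under 0.05 over all regions tested in the line). H1975 had 16 higher and 16 lower of 39, against 25.7% and 36.9% of annotated regions. HCC2935 had 16 higher and 6 lower of 44, against 23.4% and 21.7%. HCC827 had 0 calls in 18 in edgeR and in DESeq2, 5 regions at an unadjusted p under 0.05 in edgeR, and 0.0393% and 0.0131% of annotated regions called. The median log2 change of the members was -0.13 (PC9), -0.11 (H1975), -0.11 (HCC827) and 0.25 (HCC2935), beside -0.03, -0.07, 0.02 and 0.06 over the annotated regions. With summed libraries 6 of 28 were called in PC9 (annotated regions: 21.1%) and 27 of 39 in H1975 (43.4%). With the block HCC827 had 5 calls of 18, 2 higher and 3 lower (4.51%). With regional medians removed HCC2935 had 15 higher and 9 lower of 44, beside 13036 higher and 12495 lower of its 65263 annotated regions tested.

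**Figure D1:**
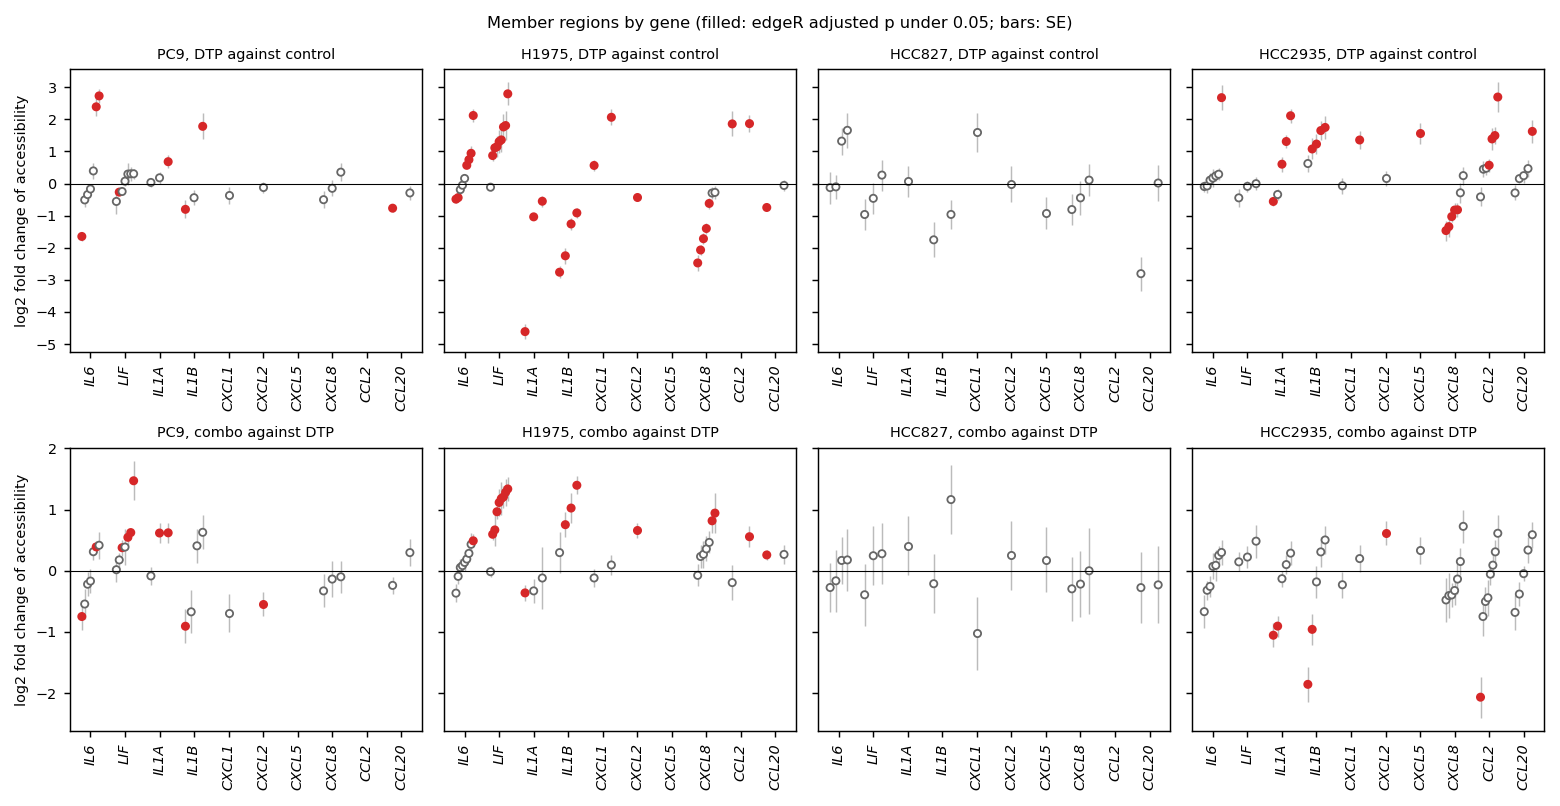
log2 fold change (y axis) of every member region by gene (x axis) for DTP against control (upper row) and combo against DTP (lower row) in the 4 lines, with 1 point per region, its SE as a bar, and filled points where the edgeR adjusted p was under 0.05. Regions with at most 3 counts in every library of a group are left out. In H1975 CXCL8, IL1A and IL1B regions lie below 0 and 8 of 9 LIF regions above it in the upper row, and 17 of the 18 filled points of H1975 in the lower row lie above 0.

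With AZD5153 given to persisters, more members were higher than lower in H1975 and, through LIF regions only, in PC9. Annotated regions of both lines also leaned higher. In combo against DTP cells, 7 PC9 regions were higher and 3 lower (annotated regions: 15.7% and 13.6%), and 17 H1975 regions were higher and 1 lower (22% and 10.6%). HCC2935 had few calls, with 1 region higher and 5 lower of 44. This was near the shares of its annotated regions, which also leaned lower (4.17% and 9.03%). HCC827 had 0 calls in edgeR and in DESeq2 and 0 regions at an unadjusted p under 0.05 in edgeR (annotated regions: 0% and 0%), and 0 with the block (0.0196%). Summing the libraries left 2 calls in PC9 (9.27%) and 8 in H1975 (6.73%), all higher. LIF regions were 4 of the 7 rises in PC9 and 8 of the 17 in H1975, and 2 and 6 of those left after summing. Outside LIF, PC9 had as many regions higher as lower in combo against DTP. PC9 and H1975 also had AZD5153 alone. In untreated cells 5 PC9 regions were higher and 6 lower (14.4% and 18%; 6 with summed libraries, 16%), and 11 H1975 regions were higher and 20 lower (29% and 43.2%; 27 with summed libraries, 55.8%). Of these rises LIF held 4 in PC9, and LIF (9) and CCL2 (2) held all 11 in H1975. H1975 members had a median log2 change of -0.43 in untreated cells and 0.30 in persisters, beside -0.18 and 0.09 over the annotated regions, and with regional medians removed the untreated value was -0.09.

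An interaction term gave the change in combo against DTP cells minus the change of AZD5153 against control, with the limit on osimertinib in combo cells stated above. It was called positive for 5 and negative for 3 PC9 regions (10.8% and 8.1%), and 1 remained with summed libraries (5.88%). In H1975 it was positive for 23 and negative for 10 regions (40% and 19.8%), with 26 called after summing (40.5%). The negative ones were 8 LIF and 2 CCL2 regions. Against controls, combo cells had 11 higher and 9 lower regions in PC9 (26.4% and 27.1%; 15 summed, 35.6%), 19 higher and 12 lower in H1975 (33.4% and 33.8%; 24 summed, 47.2%), and 16 higher and 8 lower in HCC2935 (30% and 24.8%). HCC827 had 0 calls in edgeR and in DESeq2 (0.0327% and 0.0949%), 5 regions at an unadjusted p under 0.05 in edgeR, and 2 calls with the block (8.08%). These contrasts share their control and DTP libraries, so their counts are not independent of each other.

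IL6, the gp130 cytokine that acts through the IL6 receptor, showed its largest changes in persisters at distal regions, not at its start. The IL6 locus 29.2 kb upstream, in an intron of the antisense gene IL6-AS1 (chr7:22697788-22698289), held 2.01, 2.16 and 1.96 CPM in the 3 PC9 control libraries and 13, 17 and 11.8 in the 3 DTP libraries. All DTP libraries lay above all controls (log2 fold change 2.73 ± 0.23 SE, edgeR adjusted p = 1.25e-27). In HCC2935 the same IL6 locus went from 1.28, 0.699 and 0.252 CPM to 6.34, 6.003 and 4.31 (log2 2.68 ± 0.40, adjusted p = 5.16e-07). H1975 had at most 0.696 CPM there in any library, below the filter, and the HCC827 table held no region. AZD5153 left PC9 persisters at 19.1, 16.9 and 15.4 CPM and HCC2935 persisters at 4.37, 3.47 and 2.43, changes against DTP that did not pass the test (adjusted p = 0.0792 and adjusted p = 0.114). PC9 cells given AZD5153 alone had 0.999, 1.16 and 0.963 CPM (adjusted p = 0.06). A neighbouring IL6 region, 30.3 kb upstream, behaved otherwise. It rose in PC9 persisters from 1.75, 1.77 and 0.978 to 9.15, 8.62 and 6.23 CPM (log2 2.39 ± 0.29, adjusted p = 2.01e-14) and was lower again in combo at 3.9, 5.9 and 4.43 (log2 -0.75 ± 0.21, adjusted p = 0.00451), a fall not called with summed libraries (adjusted p = 0.101 summed). The largest fall of IL6 in PC9 persisters was 8.9 kb upstream, from 25.6, 21.4 and 22.7 to 7.4, 6.98 and 8.03 CPM (log2 -1.65 ± 0.15, adjusted p = 5.03e-25), and AZD5153 alone lowered the same region to 11.4, 8.1 and 10.01 (log2 -1.31 ± 0.14, adjusted p = 1.26e-18).

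The region over the IL6 start (chr7:22727082-22727583), which contains the NF-kappa-B letters printed above, changed less. PC9 had 4.26, 3.53 and 3.52 CPM in controls and 5.45, 4.92 and 4.62 in DTP, without overlap but not called (log2 0.39 ± 0.25, adjusted p = 0.243). AZD5153 alone raised it in PC9 to 7.2, 6.94 and 5.58 (log2 0.73 ± 0.24, adjusted p = 0.0118), a call lost with summed libraries (adjusted p = 0.117 summed). In H1975 the IL6 start fell from 15, 16.5 and 15.1 to 11.4, 12.2 and 13.7 CPM in persisters (log2 -0.49 ± 0.11, adjusted p = 7.4e-05) and stood at 17.4, 14.7 and 17.8 in combo, higher than in DTP (log2 0.49 ± 0.11, adjusted p = 0.000177). Neither change was called with summed libraries (adjusted p = 0.069 summed and adjusted p = 0.202 summed). The largest rise of IL6 in H1975 persisters was 24.3 kb downstream (chr7:22751260-22751761), from 1.27, 2.32 and 1.48 to 7.09, 7.7 and 10.4 CPM (log2 2.12 ± 0.21, adjusted p = 5.35e-19). Combo libraries there held 7.23, 8.74 and 8.84 CPM and libraries of AZD5153 alone 0.951, 1.3 and 1.27. AZD5153 alone lowered the IL6 region 5.7 kb downstream in H1975 from 6.49, 7.3 and 6.16 to 3.33, 2.1 and 1.8 CPM (log2 -1.62 ± 0.21, adjusted p = 1.89e-12), where the surrounding 10 Mb had a median of -0.45. AZD5153 alone lowered 6 of the 9 IL6 regions of H1975 and raised 0. It lowered 4 when regional medians were removed or libraries summed. In HCC2935 the IL6 region nearest to the start, 0.6 kb upstream, was called in no contrast (adjusted p = 0.825 for DTP). In HCC827 the IL6 start held 12, 8.6 and 13.2 CPM in control and 8.13, 9.51 and 12.7 in DTP libraries, which overlap.

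LIF, the gp130 cytokine named for leukaemia inhibition, carried a series of regions 1.8 to 9.5 kb upstream of its start, and in PC9 and H1975 the largest rise of any member under AZD5153 alone was among them. In H1975 the LIF region 6.6 kb upstream (chr22:30253123-30253624) held 0.509, 0.332 and 0.456 CPM in controls and 27, 24 and 25.1 after AZD5153 alone (log2 5.69 ± 0.22, adjusted p = 6.16e-68). The median change of its 10 Mb was 0.28. DTP libraries had 4.69, 2.53 and 3.25 CPM (log2 2.79 ± 0.36, adjusted p = 4.3e-12) and combo libraries 5.48, 8.07 and 8.84 (log2 1.21 ± 0.18, adjusted p = 7.65e-09). The order of the 4 H1975 groups was thus control, DTP, combo, AZD5153, with no overlap between neighbours. AZD5153 raised this region less in persisters than in untreated cells (log2 -4.49 ± 0.36, adjusted p = 1.52e-25 for the difference). The LIF region nearest to the start in H1975, 1.8 kb upstream, followed the same order of means, with 0.509, 0.885 and 0.571 CPM in control, 2.16, 1.79 and 1.89 in DTP, 3.85, 1.99 and 2.98 in combo and 4.75, 4.03 and 3.82 in AZD5153 libraries, where combo overlapped both neighbours. The largest LIF rise in combo against DTP was 7.2 kb upstream (log2 1.34 ± 0.20, adjusted p = 1.59e-08). All 9 LIF regions of H1975 were higher after AZD5153 alone and 8 were higher in DTP and in combo against DTP (6 in combo against DTP with summed libraries), with summed CPM over the 9 regions of 30.2, 34.4 and 34.2 in control, 62.2, 59.6 and 62.6 in DTP, 91.4, 91 and 89.1 in combo and 199.6, 196 and 187 in AZD5153 libraries.

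In PC9 persisters 0 of 7 LIF regions rose and 1 fell. The LIF region 6.0 kb upstream (chr22:30252405-30252906), with the highest level of any member in PC9, held 71.7, 62.2 and 64.1 CPM in control, 55.9, 58.9 and 51.8 in DTP and 85.3, 89.6 and 79.9 in combo libraries. Its fall in DTP was small (log2 -0.27 ± 0.0686, adjusted p = 0.000775) and not called with regional medians removed (adjusted p = 0.123) or summed libraries (adjusted p = 0.418 summed). Its rise in combo was called (log2 0.62 ± 0.064, adjusted p = 2.63e-18). The LIF region nearest to the start in PC9, 4.1 kb upstream, was not called in DTP (adjusted p = 0.0806). The largest rise among PC9 LIF regions in combo was 5.2 kb upstream, from 1.75, 2.05 and 1.004 to 4.49, 4.01 and 4.85 CPM (log2 1.47 ± 0.32, adjusted p = 0.00012). AZD5153 alone raised most the LIF region 7.2 kb upstream, from 5.77, 4.71 and 5.08 to 12.2, 13.1 and 15.8 CPM (log2 1.33 ± 0.18, adjusted p = 4.18e-11), where combo libraries stayed at 7.02, 6.32 and 6.12. The 3 LIF regions of HCC2935 were not called in any contrast, and its region over the LIF start held 4.92, 3.73 and 3.02 CPM in control, 2.93, 3.57 and 2.82 in DTP and 4.54, 4.09 and 4.33 in combo libraries. In HCC827 the LIF region 6.0 kb upstream had 15.3, 16 and 27 CPM in control and 7.23, 5.81 and 15.3 in DTP libraries, where replicate 3 was the highest in each group (adjusted p = 0.811, and log2 -1.03 with adjusted p = 0.0446 with the replicate block).

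**Figure D2:**
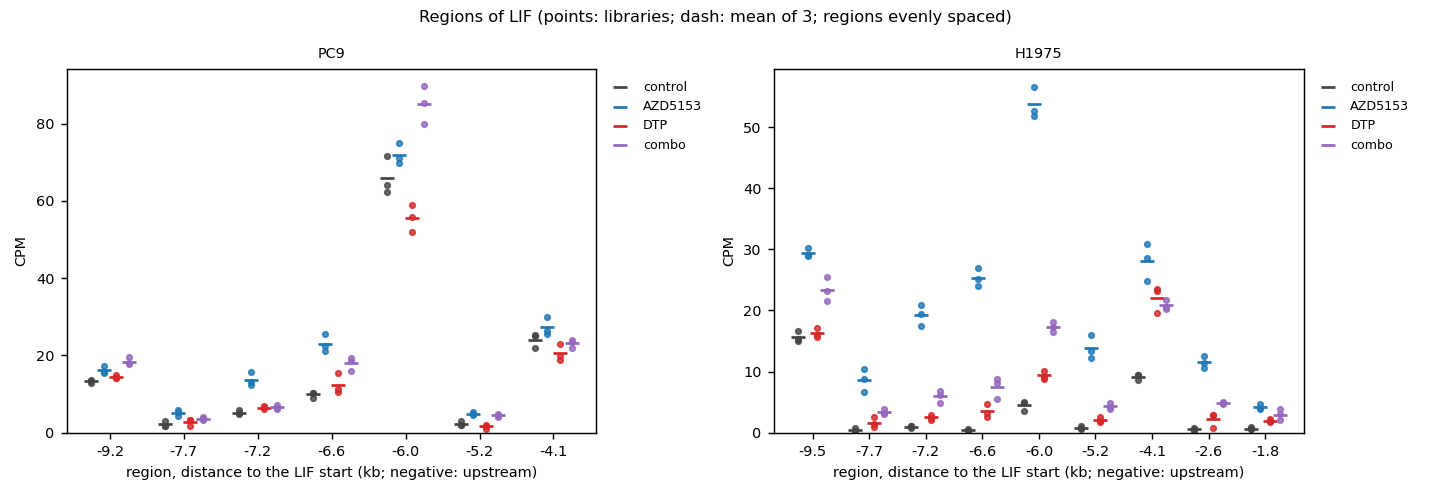
CPM (y axis) of each LIF region by its distance to the LIF start (x axis, regions evenly spaced) in PC9 and H1975, with 1 point per library and a dash at the mean of 3 libraries for control, AZD5153, DTP and combo. In H1975 the mean of the AZD5153 libraries is the highest at every region, and at 6.6 kb upstream the groups rise from control through DTP and combo to AZD5153.

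Annotated interleukin 1 regions fell in H1975 persisters, at all 3 IL1A and all 4 IL1B regions. In HCC2935 they mostly rose, at 3 of 5 IL1A and 4 of 5 IL1B regions, with 1 IL1A region lower. No IL1B region of H1975 was at the same locus as one of HCC2935. AZD5153 alone also lowered all 7 annotated regions of H1975. With regional medians removed the IL1A start was no longer called there (adjusted p = 0.129). The same held for IL1B 12.3 kb downstream (adjusted p = 0.859), which was also not called with summed libraries (adjusted p = 0.0595 summed). IL1A encodes the alpha form of the cytokine, which is active without processing. In H1975 the IL1A region 19.9 kb upstream (chr2:112804159-112804660) held 15.5, 13.7 and 12.3 CPM in control and 0.36, 0.949 and 0.524 in DTP libraries, a 24.4-fold fall (log2 -4.61 ± 0.23, adjusted p = 1.16e-51). It stayed at 0.466, 0.553 and 0.596 CPM in combo and was 1.31, 0.968 and 1.91 after AZD5153 alone. All treated libraries were thus below all controls. In HCC2935 this was the IL1A region that fell, with 27.9, 26.8 and 28.5 CPM in control and 23.6, 19.2 and 17.9 in DTP libraries (log2 -0.56 ± 0.13, adjusted p = 0.000717). With summed libraries that call was lost (adjusted p = 0.0633 summed). The IL1A region 11.4 kb upstream lost most accessibility in H1975 under AZD5153 alone, from 18.6, 18.7 and 17.9 to 0.713, 0.806 and 0.212 CPM (log2 -5.21 ± 0.22, adjusted p = 4.81e-61), while DTP libraries had 9.01, 9.6 and 11.5 and combo libraries 7.46, 7.41 and 7.45. The median change of its 10 Mb was -0.56 and the interaction was called (log2 4.84 ± 0.30, adjusted p = 2.91e-38).

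In HCC2935 persisters gained IL1A accessibility most at 9.8 kb upstream (chr2:112794055-112794556), from 2.37, 4.2 and 4.03 to 17.6, 14.3 and 16.2 CPM (log2 2.11 ± 0.22, adjusted p = 1.3e-10), and combo libraries kept 17, 18.6 and 14.7. The neighbouring IL1A region 11.4 kb upstream rose in HCC2935 persisters from 6.74, 5.36 and 10.1 to 22.4, 17.7 and 18.2 CPM and fell to 12.3, 10.5 and 7.63 in combo (log2 -0.90 ± 0.17, adjusted p = 0.000294). The largest IL1A fall in HCC2935 combo was 19.4 kb upstream (log2 -1.05 ± 0.19, adjusted p = 0.000228), where DTP and control libraries overlapped. The region over the IL1A start, which holds the AP-1 letters, rose in PC9 from 7.27, 5.49 and 3.91 to 7.4, 9.64 and 9.64 CPM in DTP (log2 0.68 ± 0.20, adjusted p = 0.00425) and to 12.5, 13.7 and 14.6 in combo (log2 0.62 ± 0.16, adjusted p = 0.00141). These steps were not called with summed libraries (adjusted p = 0.088 summed and adjusted p = 0.122 summed), while combo against control was (adjusted p = 3.93e-05 summed). In H1975 it was lower in DTP, with overlapping libraries (log2 -0.55 ± 0.17, adjusted p = 0.00419). That call was lost when regional medians were removed (adjusted p = 0.105) or libraries summed (adjusted p = 0.0746 summed). HCC2935 DTP libraries had 8.13, 8.29 and 5.8 CPM at the IL1A start against 5.46, 4.2 and 3.78 in controls (log2 0.60 ± 0.24, adjusted p = 0.042), a call lost with regional medians removed (adjusted p = 0.109). The single IL1A region of HCC827, 9.8 kb upstream, held 4.88, 3.27 and 6.89 CPM in control and 2.71, 5.81 and 6.83 in DTP libraries, which overlap.

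IL1B encodes the beta form, which is cleaved by caspase-1 before release. All 4 IL1B regions of H1975 fell in persisters, most at 15.4 kb downstream (chr2:112821185-112821686), from 11, 9.84 and 13.1 to 1.56, 2.004 and 1.99 CPM (log2 -2.76 ± 0.19, adjusted p = 5.58e-34). Combo libraries had 3.15, 3.32 and 4.27 CPM there, between DTP and control. At 12.3 kb downstream, the IL1B region nearest to the start in H1975, DTP libraries held 3.97, 5.59 and 3.98 and combo libraries 11.7, 10.5 and 11.8 CPM (log2 1.40 ± 0.15, adjusted p = 2.33e-15), and controls 7.13, 7.08 and 8.56. At other loci 4 of 5 IL1B regions rose in HCC2935 persisters, with the start going from 0.546, 1.63 and 2.02 to 5.04, 4.72 and 4.64 CPM (log2 1.75 ± 0.35, adjusted p = 0.000101) and 6.97, 6.57 and 6.59 in combo. None of these 5 loci was annotated in H1975. In the joint fit of the lines given below, H1975 persisters changed there by -1.22 at the start and by 0.18, 0.84, 0.88 and 0.53 elsewhere (log2 scale). PC9 had a start region of 7.02, 6.28 and 6.06 CPM in control and 5.65, 4.72 and 4.02 in DTP libraries, a change that was not called (log2 -0.44 ± 0.23, adjusted p = 0.124). AZD5153 lowered the PC9 IL1B start alone, to 1.999, 1.93 and 1.93 CPM (log2 -1.78 ± 0.28, adjusted p = 8.25e-09), and in persisters, to 1.76, 2.95 and 2.95 (log2 -0.91 ± 0.28, adjusted p = 0.0101), the latter not called with summed libraries (adjusted p = 0.0884 summed). At the IL1B locus 22.3 kb downstream, PC9 controls held 2 counts in each library (0.391 to 0.501 CPM) and DTP libraries 3.5, 2.67 and 3.01 CPM, with 5.27, 5.06 and 3.8 in combo. In HCC2935 this IL1B locus rose with drug tolerance, from 1.28, 2.56 and 2.27 to 5.69, 8.15 and 6.13 CPM, and AZD5153 lowered it to 2.11, 1.49 and 1.91 (log2 -1.86 ± 0.29, adjusted p = 1.32e-05). In HCC827 the IL1B region 12.3 kb downstream had 6.18, 9.005 and 8.27 CPM in control and 2.71, 0.528 and 3.06 in DTP libraries, without overlap (adjusted p = 0.327, and log2 -1.73 with adjusted p = 0.0312 with the replicate block).

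**Figure D3:**
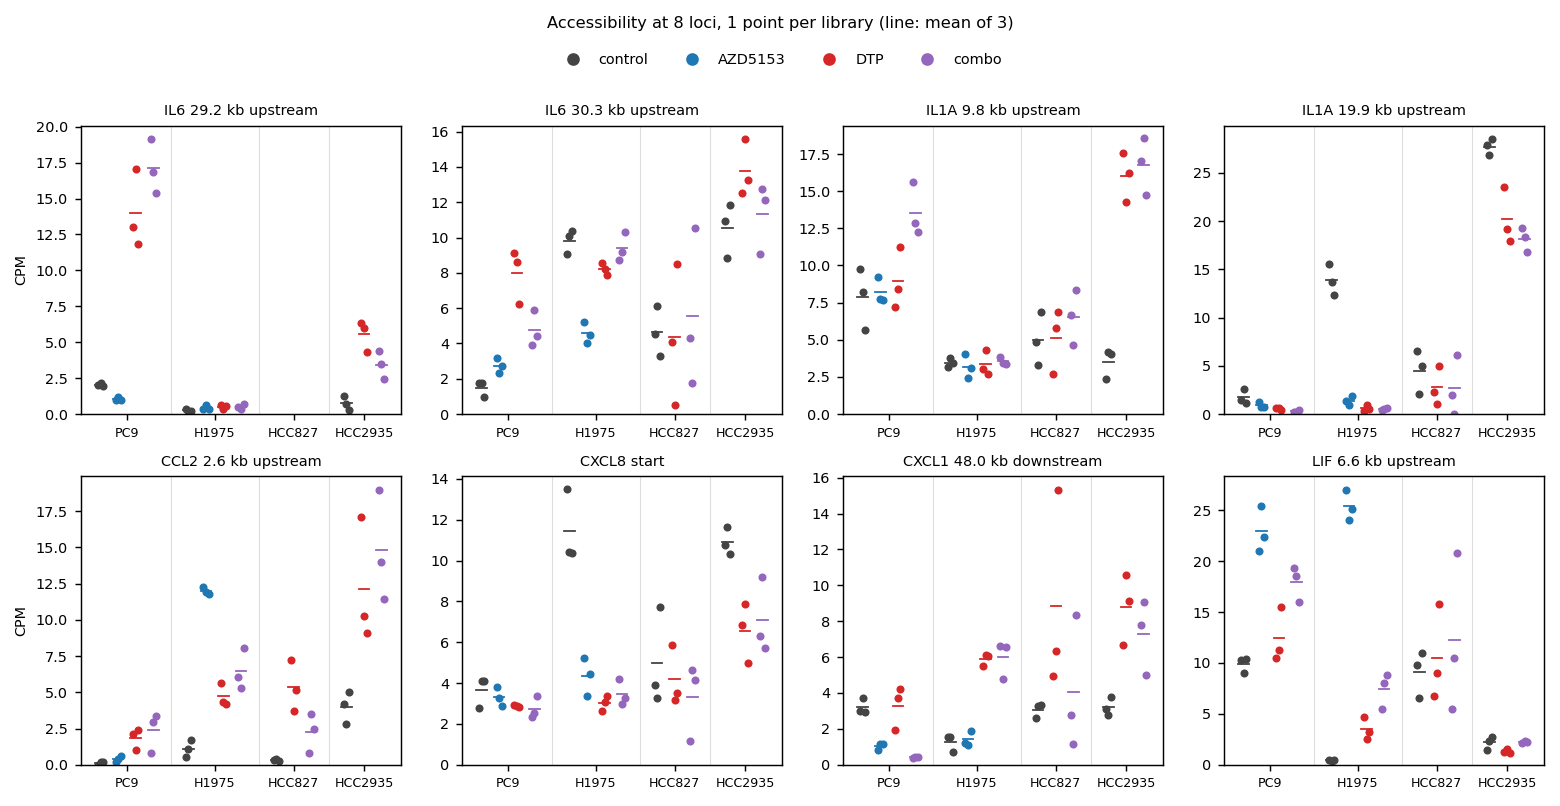
CPM (y axis, from 0) at 8 loci in the 4 lines (x axis), with 1 point per library and a line at the mean of 3 for control, AZD5153 (PC9 and H1975), DTP and combo. IL6 29.2 kb upstream is high in PC9 and HCC2935 persisters, IL1A 19.9 kb upstream is lost in H1975 under every treatment, CCL2 2.6 kb upstream is higher in DTP than in control libraries of every line, and no points are drawn where a table holds no region.

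CXCL8, the main human neutrophil chemokine, lost accessibility in persisters of H1975 and HCC2935. The region over the CXCL8 start (chr4:73740364-73740865) held 13.5, 10.4 and 10.4 CPM in H1975 control and 2.64, 3.06 and 3.35 in DTP libraries (log2 -2.07 ± 0.17, adjusted p = 3.65e-26). In HCC2935 it held 10.7, 11.7 and 10.3 CPM in control and 6.83, 7.86 and 4.97 in DTP libraries (log2 -0.83 ± 0.21, adjusted p = 0.00195), in a stretch of chromosome 4 whose median change was 0.56. In each of the 2 lines 5 of 7 CXCL8 regions were lower and 0 higher. The largest falls were 35.3 kb upstream in H1975, from 5.48, 5.09 and 4.79 to 0.841, 1.27 and 0.943 CPM (log2 -2.47 ± 0.26, adjusted p = 6.36e-17), and 57.3 kb upstream in HCC2935, from 5.28, 6.06 and 5.29 to 1.95, 2.14 and 2.32 (log2 -1.46 ± 0.31, adjusted p = 0.00019). AZD5153 alone also lowered the CXCL8 start in H1975, to 5.23, 3.39 and 4.45 CPM (log2 -1.5 ± 0.16, adjusted p = 2.05e-17), and most of all the region 12.8 kb upstream, from 8.02, 7.41 and 7.3 to 1.19, 1.77 and 1.27 (log2 -2.61 ± 0.23, adjusted p = 8.57e-23). In persisters the same agent left the CXCL8 start at 4.2, 2.99 and 3.28 CPM (adjusted p = 0.422) and the region 12.8 kb upstream was higher than in DTP, at 4.66, 7.08 and 4.47 against 3.85, 2.53 and 3.35 CPM, a call lost with summed libraries (adjusted p = 0.0543 summed). In PC9 none of the 3 CXCL8 regions was called for DTP, and the nearest, 10.8 kb upstream, held 2.76, 3.14 and 3.52 CPM in control and 2.73, 5.54 and 4.22 in DTP libraries. HCC827 libraries overlapped at the nearest region, 12.8 kb upstream, with 15.9, 18.4 and 26.7 CPM in control and 6.77, 8.98 and 27.1 in DTP.

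**Figure D4:**
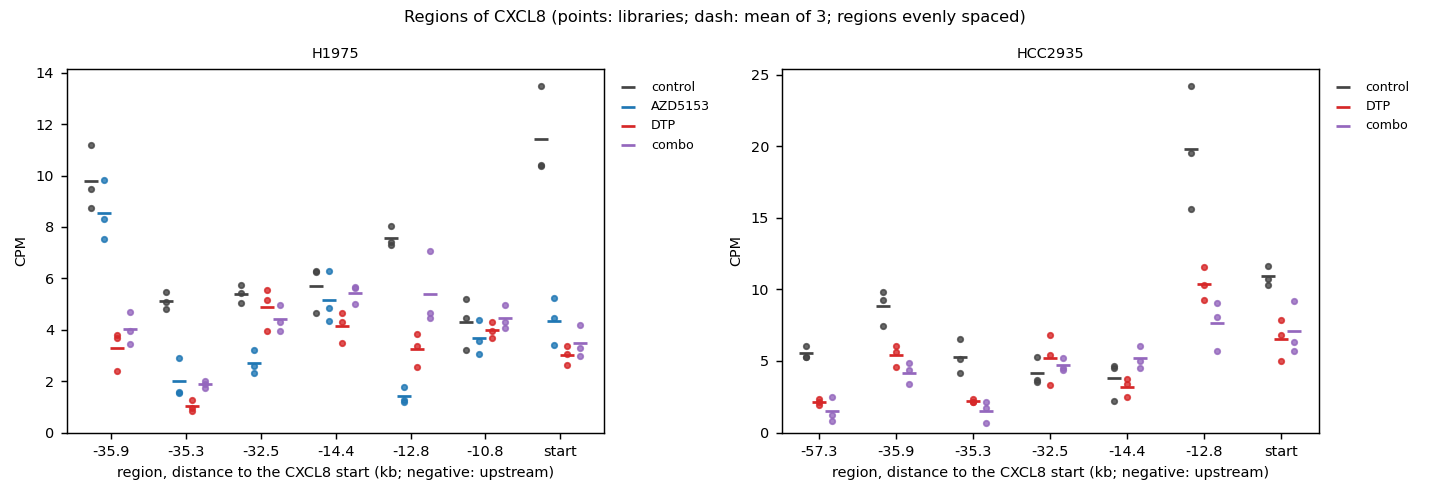
CPM (y axis) of each CXCL8 region by its distance to the CXCL8 start (x axis, regions evenly spaced) in H1975 and HCC2935, with 1 point per library and a dash at the mean of 3. At the start all DTP libraries lie below all controls in both lines, and the AZD5153 libraries of H1975 are the lowest group 12.8 kb upstream.

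CXCL1, CXCL2 and CXCL5, neutrophil chemokines of the same cluster on chromosome 4, had 0 lower regions in the persisters of HCC2935 and 1 in H1975, the CXCL2 start. That call was lost with summed libraries (adjusted p = 0.148 summed). With regional medians removed HCC2935 had 1, CXCL1 1.4 kb upstream (adjusted p = 0.0496). CXCL1 had a distal region 48.0 kb downstream (chr4:73917113-73917614) that rose in H1975 persisters from 1.53, 1.55 and 0.685 to 5.53, 6.12 and 6.08 CPM (log2 2.06 ± 0.25, adjusted p = 5.63e-14) and in HCC2935 from 3.1, 2.8 and 3.78 to 6.67, 10.6 and 9.12 (log2 1.36 ± 0.27, adjusted p = 7.13e-05). HCC827 went from 2.6, 3.27 and 3.31 to 4.97, 6.34 and 15.3 CPM without overlap (adjusted p = 0.521, and log2 1.52 with adjusted p = 0.048 with the replicate block). This CXCL1 locus is in the PC9 count table but not among its annotated regions, at 3.01, 3.73 and 2.93 CPM in control, 1.95, 3.69 and 4.22 in DTP, 0.7996, 1.16 and 1.16 in AZD5153 and 0.39, 0.422 and 0.422 in combo libraries. The CXCL1 start was annotated in PC9 only and was lower in combo than in control, with 5.51, 5.1 and 3.52 CPM in control and 2.34, 2.11 and 2.32 in combo libraries (log2 -1.05 ± 0.30, adjusted p = 0.00151), while 3.31, 4.72 and 3.01 in DTP did not differ from control by the test (adjusted p = 0.297). In H1975 the CXCL1 region 1.4 kb upstream rose in DTP (log2 0.56 ± 0.17, adjusted p = 0.0029), which was not called with summed libraries (adjusted p = 0.0893 summed), and fell under AZD5153 alone from 4.2, 4.42 and 4.45 to 2.14, 0.968 and 1.48 CPM (log2 -1.61 ± 0.25, adjusted p = 4.6e-09). The HCC2935 CXCL1 region at that place was not called in DTP (adjusted p = 0.848).

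The CXCL2 start (chr4:74099134-74099635) was annotated in all 4 lines. In combo against DTP it was lower in PC9, at 5.27, 6.75 and 6.33 against 9.93, 7.39 and 9.44 CPM (log2 -0.54 ± 0.19, adjusted p = 0.0294), and higher in H1975, at 14.1, 14.3 and 13.2 against 9.97, 9.6 and 8.17 (log2 0.66 ± 0.12, adjusted p = 3.53e-06). HCC2935 also had more in combo, 10.4, 9.55 and 11.4 against 7.16, 6.29 and 7.29 CPM (log2 0.61 ± 0.19, adjusted p = 0.0358). With summed libraries these 3 adjusted p-values were 0.251, 0.0665 and 0.207, and with regional medians removed 0.0708, 1.64e-05 and 0.0611. In HCC827 the CXCL2 start was called in no contrast and its groups overlapped. DTP changed it by -0.12 on the log2 scale in PC9, -0.41 in H1975 (called, with overlapping libraries) and 0.16 in HCC2935. The HCC2935 value, not called, was below the median change of its stretch of chromosome 4, given above for the CXCL8 start. CXCL5 had a single region in HCC827, over its start, with 7.8, 4.91 and 17.9 CPM in control and 3.16, 4.75 and 7.54 in DTP libraries (adjusted p = 0.885). In HCC2935 its single region, 7.1 kb upstream, rose from 1.28, 1.4 and 2.52 to 5.04, 5.29 and 5.8 CPM in DTP (log2 1.57 ± 0.32, adjusted p = 0.000124) and was still called with regional medians removed (adjusted p = 0.0124), and combo libraries held 5.99, 6.57 and 7.45.

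CCL2, the monocyte chemokine, was more accessible in persisters of both lines that annotate it, with 2 of 2 regions higher in H1975 and 5 of 8 higher and 0 lower in HCC2935. The CCL2 region 2.6 kb upstream (chr17:34252414-34252915 in H1975) went from 0.509, 1.11 and 1.71 to 5.65, 4.33 and 4.19 CPM in H1975 (log2 1.87 ± 0.27, adjusted p = 2.3e-10) and from 4.19, 2.8 and 5.04 to 17.1, 10.3 and 9.12 in HCC2935 (log2 1.5 ± 0.25, adjusted p = 7.16e-06). The same locus is in the count tables of PC9 and HCC827 outside the annotated regions. There it held 0, 0.196 and 0.196 CPM in PC9 control and 2.14, 1.03 and 2.41 in PC9 DTP libraries, and 0.325, 0.409 and 0.276 and 7.23, 3.7 and 5.19 in HCC827. In all 4 lines every DTP library was thus above every control library, with at most 3 counts per library in the PC9 and HCC827 controls, for which no fold is given. AZD5153 alone raised it further in H1975, to 12.2, 11.9 and 11.8 CPM (log2 3.23 ± 0.22, adjusted p = 3.06e-34), and combo libraries held 6.06, 5.31 and 8.05. The CCL2 start in H1975 rose likewise in DTP from 1.15, 0.111 and 0.456 to 2.64, 2.64 and 1.57 CPM (log2 1.86 ± 0.39, adjusted p = 1.23e-05), with 3.68, 5.48 and 3.82 after AZD5153 alone and 1.98, 2.1 and 1.59 in combo. In HCC2935 the largest rise was 19.6 kb upstream, from 0.911, 0.233 and 1.01 to 7.16, 5.003 and 3.32 CPM (log2 2.70 ± 0.46, adjusted p = 7.21e-06). A region 20.9 kb upstream of CCL2 rose in DTP, from 2.004, 1.87 and 1.26 to 6.18, 3.57 and 5.14 CPM, and fell in combo to 0.972, 1.61 and 0.693 (log2 -2.07 ± 0.34, adjusted p = 3.41e-05). At 16.3 kb upstream HCC2935 controls held 2 or 3 counts, so only levels are given, with 0.546, 0.466 and 0.756 CPM in control, 4.07, 1.72 and 2.82 in DTP and 3.4, 5.08 and 4.16 in combo libraries. The CCL2 region nearest to the start in HCC2935, 0.5 kb upstream, was not called in DTP (adjusted p = 0.0832).

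CCL20, the ligand of CCR6, was lower at 1 of 2 regions in PC9 and H1975 persisters and higher at 1 of 5 in HCC2935. Its region 4.5 kb downstream (chr2:227818089-227818590 in H1975), annotated in all 4 lines, was lower in PC9 persisters, at 12.7, 16.8 and 17.3 against 26.1, 27.5 and 24.4 CPM (log2 -0.77 ± 0.12, adjusted p = 4.91e-09), and in H1975 persisters, at 22.5, 20.4 and 20.7 against 34.5, 31.1 and 29.1 (log2 -0.75 ± 0.0849, adjusted p = 5.1e-15). In HCC2935 it changed by 0.15 on the log2 scale (adjusted p = 0.362). AZD5153 alone lowered it in PC9, to 19.99, 20.8 and 18.9 CPM (log2 -0.46 ± 0.11, adjusted p = 0.000333), not called with summed libraries (adjusted p = 0.176 summed). In H1975 the fall under AZD5153 alone (log2 -0.84 ± 0.0888, adjusted p = 3.93e-17) lay in a 10 Mb stretch with a median of -0.73, and with regional medians removed it was -0.27. In HCC2935 the called CCL20 region lay 25.0 kb upstream and rose from 0.729, 1.4 and 3.02 to 7.32, 4.57 and 4.31 CPM in DTP (log2 1.62 ± 0.37, adjusted p = 0.000421) and combo libraries held 4.54, 3.1 and 2.25. HCC827 showed its largest member change at the CCL20 region 7.9 kb downstream (chr2:227821459-227821960), with 8.13, 9.005 and 10.5 CPM in control, 1.81, 1.06 and 0.943 in DTP and 0.787, 1.16 and 1.11 in combo libraries. All control libraries lay above the others (log2 -2.81 ± 0.53, adjusted p = 0.1, and log2 -2.85 with adjusted p = 0.00113 with the replicate block).

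After both drugs several of these distal changes stood out against untreated controls. In PC9 combo cells the IL6 locus 29.2 kb upstream was higher than in controls (log2 3.04 ± 0.22, adjusted p = 1.92e-37), and in HCC2935 as well (log2 2.01 ± 0.43, adjusted p = 0.000171). The H1975 combo cells had their largest rise at LIF 6.6 kb upstream (log2 4.00 ± 0.30, adjusted p = 1.44e-29) and their largest fall at IL1A 19.9 kb upstream (log2 -4.73 ± 0.23, adjusted p = 2.02e-51). Also higher in H1975 combo were CCL2 2.6 kb upstream (log2 2.42 ± 0.24, adjusted p = 2.61e-18) and IL6 24.3 kb downstream (log2 2.17 ± 0.21, adjusted p = 7.38e-20), while the CXCL8 start was lower (log2 -1.80 ± 0.16, adjusted p = 3.04e-22). HCC2935 combo cells were higher at the IL1B start (log2 2.25 ± 0.33, adjusted p = 2.99e-07) and at IL1A 9.8 kb upstream (log2 2.21 ± 0.22, adjusted p = 1.25e-11) and lower at CXCL8 57.3 kb upstream (log2 -1.87 ± 0.32, adjusted p = 6.6e-06), in a stretch of chromosome 4 with a median of 0.68. The HCC2935 rise of CXCL1 48.0 kb downstream in DTP, in a stretch with a median of 0.56, was 0.82 with regional medians removed (adjusted p = 0.0159).

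Whether the lines differed was tested in a joint fit at 35 member loci matched in the 4 count tables. The DTP change differed between lines at 25 of them (37.2% of all matched regions), and the combo change against DTP at 4 (5.5%). The IL1A locus 19.9 kb upstream had the largest F value for DTP, with log2 changes, where no group was at 3 counts or under, of H1975 -4.61, HCC827 -0.52 and HCC2935 -0.65 (adjusted p = 6.53e-11). At the IL1B start they were PC9 -0.40, H1975 -1.22, HCC827 1.17 and HCC2935 1.66 (adjusted p = 6.21e-06), and at the IL6 locus 30.3 kb upstream PC9 2.44, H1975 -0.45, HCC827 0.23 and HCC2935 0.20 (adjusted p = 6.13e-06). For combo against DTP the loci were IL1B 22.3 kb downstream, the IL1B start, CXCL1 48.0 kb downstream and IL6 4.3 kb downstream. The CXCL1 locus, at 2 counts per PC9 combo library, changed by H1975 0.04, HCC827 -0.97 and HCC2935 -0.29 (adjusted p = 0.00903).

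**Figure D5:**
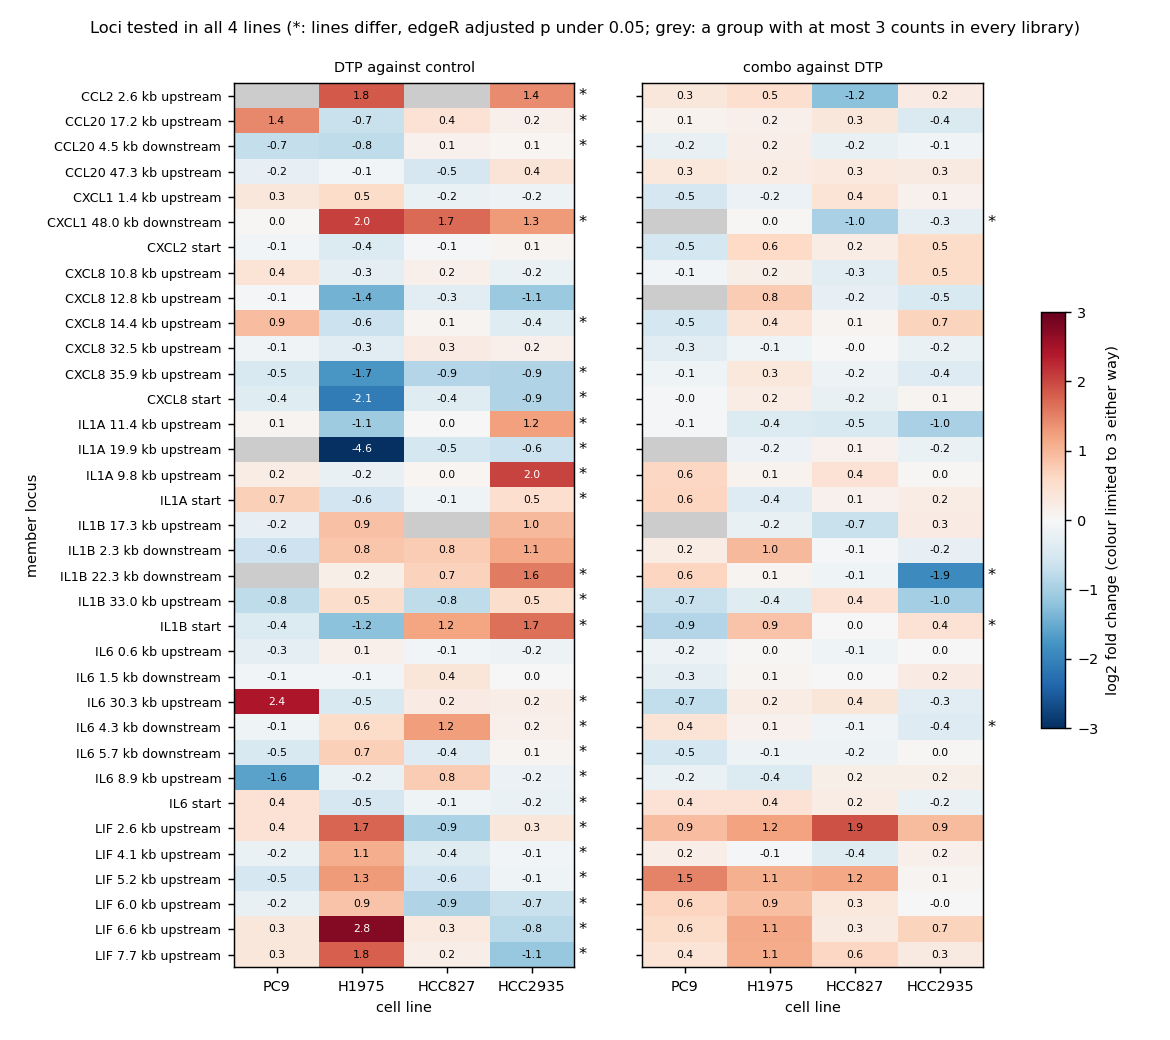
log2 fold change at the 35 member loci (rows) tested in all 4 lines (columns) for DTP against control and combo against DTP, as colour and printed value, with an asterisk where the change differed between lines at an edgeR adjusted p under 0.05 and grey cells where a group held at most 3 counts in every library. The 25 asterisks for DTP and 4 for combo stand beside their rows, the LIF rows are red in H1975 for DTP, and the IL1B start row is blue in H1975 and red in HCC2935.

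The wider pathway was read at the region nearest to the start of 39 other genes (cytokines, receptors, NF-kappa-B and STAT3 factors and their inhibitors). In DTP against control 4 of 32 genes with a region were higher and 4 lower in PC9, 11 and 10 of 35 in H1975, 10 and 0 of 35 in HCC2935, and 0 of 28 in HCC827. The shares of annotated regions for the first 3 lines were 16.5% and 21.5%, 25.7% and 36.9%, and 23.4% and 21.7%. HCC827 had 0.0393% and 0.0131%. With summed libraries 1 and 1 were called in PC9, 5 and 4 in H1975, 4 and 0 in HCC2935, and 2 and 2 in HCC827. Annotated regions called that way were 6291 higher and 8396 lower of 69565 in PC9 and 12394 and 20965 of 76952 in H1975. HCC2935 had 12610 and 10797 of 65263, and HCC827 2388 and 1441 of 30566. The median log2 changes of the pathway genes were 0.09, 0.00, 0.19 and 0.16. In HCC2935 persisters the largest was IL1RN, the interleukin 1 receptor antagonist, at 1.63 to 3.53 CPM in control and 11.3 to 15.9 in DTP libraries (log2 2.33 ± 0.26, adjusted p = 6.59e-10). In H1975 persisters CSF2, a myeloid growth factor, fell, with 25.3 to 26.7 CPM in control and 7.91 to 9.64 in DTP libraries (log2 -1.72 ± 0.11, adjusted p = 2.08e-38), and TSLP, an epithelial cytokine, was among the rises (log2 2.25 ± 0.30, adjusted p = 8.09e-12). In PC9 persisters NFKB2, an NF-kappa-B subunit, rose (log2 0.49 ± 0.12, adjusted p = 0.000563) and SOCS3, a feedback inhibitor of STAT3 signalling, fell (log2 -0.59 ± 0.11, adjusted p = 3.86e-06). Both calls were lost with summed libraries (adjusted p = 0.158 and 0.055). For combo against DTP the counts were 7 higher and 5 lower in PC9, 13 and 3 in H1975, 1 and 0 in HCC2935 and 0 in HCC827. The shares of annotated regions were 15.7% and 13.6%, 22% and 10.6%, and 4.17% and 9.03% in the first 3. With summed libraries the counts were 0 and 2, 3 and 1, 1 and 0, and 0 and 1. Annotated regions called that way were 2359 higher and 4089 lower in PC9 and 2605 and 2572 in H1975. HCC2935 had 535 and 4271, and HCC827 165 and 1103. IL1RN fell with AZD5153 in PC9 persisters (log2 -1.23 ± 0.14, adjusted p = 9.21e-16) and in H1975 persisters (log2 -0.85 ± 0.14, adjusted p = 3.22e-07). LIFR, the receptor of LIF, rose in H1975 combo, with 1.47 to 1.68 CPM in DTP and 4.65 to 6.06 in combo libraries (log2 1.79 ± 0.23, adjusted p = 8.48e-11). AZD5153 alone gave 6 higher and 3 lower in PC9 (0 and 1 with summed libraries; annotated regions: 14.4% and 18%) and 15 and 9 in H1975 (9 and 6; 29% and 43.2%).

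The authors' peak lists, called per library, gave the same regions in yes-or-no form. A peak overlapped the region in all 3 libraries at 21 of 28 PC9 regions in control, 22 in DTP, 23 in AZD5153 and 26 in combo. Of all annotated PC9 regions 81.2%, 85.7%, 85.5% and 82.4% had one. The H1975 numbers were 32, 34, 31 and 37 of 39 (annotated regions: 90.6%, 91.8%, 81.4% and 89.8%). HCC2935 had 32 of 44 in control, 38 in DTP and 33 in combo (77.4%, 84% and 78.7%). HCC827 had 11 of 18 in control, 6 in DTP and 7 in combo (76.7%, 58.8% and 51.4%).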

How the data were processed

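ATAC-seq counts of 42 libraries were analysed, with groups taken from the sample labels. The deposited tables hold whole-number counts per region of 502 bases, and per the labels the authors used hg38 with BWA 0.7.17, SAMtools 1.9, deepTools 3.4, MACS2 2.2.6, featureCounts 2.0.0 and ChIPseeker 1.29.1, with no roles named. Each line also has an annotated table of fewer regions with a nearest gene, whose filter the sources used here do not state. Peak files hold the −log10 q-value of each peak as the authors' caller wrote it, per library. The extraction text in the labels describes an H3K27ac ChIP, while titles and design name ATAC-seq, so the values were read as ATAC-seq.

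Each line was fitted on its full count table with edgeR 4.0.16 (R 4.3.3; filterByExpr, TMM scaling, quasi-likelihood F tests, all groups of the line), with Benjamini-Hochberg adjustment over all regions tested and calls at an adjusted p under 0.05. SE was the log2 change divided by the root of F. CPM used the full table totals. The interaction was combo minus DTP less AZD5153 minus control. Lines were compared in 1 fit of regions whose starts lay within 251 bases, with a 3-degree-of-freedom F test. The SE includes the spread between libraries as edgeR estimated it, which was close to counting error in PC9 and H1975. A group with at most 3 counts in every library received levels and no fold. The fits were tested on simulated data. The smallest exact permutation p that 3 against 3 libraries allow is 0.1, so single regions were not tested by permutation. Their p-values rest on the edgeR model.

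Described were, for each gene and line, the region nearest to the start and the called region of largest change per contrast, and for the 39 pathway genes up to 3 called changes per direction, contrast and line. Other regions named were chosen after their values were seen. The members and lists were chosen with earlier results of these data known. In HCC827 same-numbered libraries deviated together with correlations of 0.261 to 0.849, against -0.0286 to 0.018 in PC9, -0.0544 to 0.0231 in H1975 and -0.169 to 0.293 in HCC2935. HCC827 libraries of different numbers had correlations of -0.725 to 0.571, with a median of -0.434. The block in HCC827 rests on these values, since the labels give replicate numbers and no pairing. Alternatives were DESeq2 1.42.0 and its size factors, library size only, no filter, a mean of at least 20 counts, annotated regions only, the block, libraries summed, medians of 10 Mb bins with at least 50 regions removed, and each library left out. Promoter sequences came from RefSeq (GRCh38.p14). The sequences of distal regions and the promoters of LIF and CCL2 are not printed here.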

Additional observations from a re-analysis of the deposited data

Results flagged for a closer look

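For 16 described regions combo against DTP changed otherwise than AZD5153 against control by the interaction test (combo minus DTP, less AZD5153 minus control, log2 scale). Negative differences, where the change under AZD5153 was lower in persisters than in untreated cells, were found in PC9 at IL6 30.3 kb upstream (-1.54; 0.80 in untreated cells and -0.75 in persisters) and LIF 7.2 kb upstream (-1.32). In H1975 they were found at LIF 6.6 kb upstream (-4.49), LIF 1.8 kb upstream (-1.82) and the CCL2 start (-2.95; 2.76 in untreated cells and -0.19 in persisters). Positive differences were found in PC9 at IL1A 11.4 kb upstream (0.97). In H1975 they were found at IL1A 11.4 kb upstream (4.84), CXCL8 12.8 kb upstream (3.42), IL1B 15.4 kb downstream (2.43), IL1B 12.3 kb downstream (1.95), the CXCL8 start (1.77), IL6 30.3 kb upstream (1.53), CXCL1 1.4 kb upstream (1.5), CCL20 4.5 kb downstream (1.10), the IL6 start (0.72) and the CXCL2 start (0.43). The differences at the H1975 IL6 start and CXCL2 start were not called with regional medians removed (adjusted p = 0.0938 and 0.465) or with summed libraries (adjusted p = 0.068 and 0.315). Nor were, with summed libraries, those of PC9 at IL6 30.3 kb upstream (adjusted p = 0.0606) and IL1A 11.4 kb upstream (adjusted p = 0.099). The surrounding 10 Mb of H1975 had median differences of 0.58 for the IL1B regions, 0.68 for CCL20, 0.42 for IL6 and 0.30 for the CXCL regions. With regional medians removed, 16 of the 39 H1975 regions had a positive and 10 a negative difference past the threshold, against 23 and 10 without. Of the 76952 annotated regions of H1975, 28258 had a positive and 13616 a negative difference with regional medians removed.

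For 25 loci the DTP change differed between the 4 lines in the joint edgeR fit (adjusted p, all over the matched regions). Those of the interleukin 1 genes were IL1A 19.9 kb upstream (6.53e-11), IL1A 11.4 kb upstream (3.68e-07), IL1A 9.8 kb upstream (1.89e-06), the IL1A start (0.0029), the IL1B start (6.21e-06), IL1B 22.3 kb downstream (0.014) and IL1B 33.0 kb upstream (0.0325). IL6 loci were those 30.3 kb upstream (6.13e-06), 8.9 kb upstream (8.6e-06), 4.3 kb downstream (0.000583), 5.7 kb downstream (0.0031) and at the start (0.0467). LIF loci were those 4.1 kb (1.66e-05), 6.0 kb (4.51e-05), 6.6 kb (8.6e-05), 7.7 kb (0.00105), 2.6 kb (0.0338) and 5.2 kb upstream (0.0367). Chemokine loci were the CXCL8 start (0.000185), CXCL8 35.9 kb upstream (0.00708), CXCL8 14.4 kb upstream (0.0154), CXCL1 48.0 kb downstream (0.00768), CCL20 4.5 kb downstream (0.0121), CCL20 17.2 kb upstream (0.0439) and CCL2 2.6 kb upstream (0.0465). The CCL2 value rests on changes from at most 3 counts per library in the PC9 and HCC827 controls, so it does not show that sizes differed. For combo against DTP the change differed between lines at IL1B 22.3 kb downstream (0.00149), CXCL1 48.0 kb downstream (0.00903), the IL1B start (0.0321) and IL6 4.3 kb downstream (0.0434). A PC9 group with at most 3 counts per library also entered the tests of IL1A 19.9 kb upstream and IL1B 22.3 kb downstream for DTP and of CXCL1 48.0 kb downstream for combo.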

How the results depend on the processing

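Small log2 changes in shifted stretches can change direction when regional medians are removed. The HCC2935 DTP change of the CXCL2 start (log2 0.16) was below the median of its stretch, so its direction depends on that setting. Some orders of counts also reversed under an alternative. In PC9, AZD5153 alone had 6 members higher and 5 lower with library size only. With summed libraries the PC9 interaction had 0 positive calls and 1 negative, and PC9 combo against DTP had 0 pathway genes higher and 2 lower. With peaks of a −log10 q of at least 5 only, PC9 combo had 16 regions with peaks in all 3 libraries, below control (17) and DTP (19). With the 3 libraries of a group summed, calls went from 10 to 2 for PC9 combo against DTP, from 11 to 6 for PC9 AZD5153 against control, from 8 to 1 for the PC9 interaction and from 18 to 8 for H1975 combo against DTP, and in HCC827, given the dispersion of HCC2935, from 0 to 6 for DTP, 1 for combo against DTP and 6 for combo against control. DESeq2 called 6 regions for PC9 combo against DTP and 7 for PC9 AZD5153 against control. For HCC827 DTP against control, annotated regions only gave 1 call. For HCC827 combo against control, library size only, annotated regions only and regional medians removed gave 1 call each. With the replicate block, HCC827 had 5 calls for DTP and 2 for combo against control, and the lines differed in combo against DTP at 7 loci in place of 4; it moved no other count by over 1.5 times. The counts of called regions under the remaining alternatives were within 1.5 times of those reported. In H1975 library size scaling moved the median DTP change of all regions to 0.19, with 17 members higher and 13 lower.

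Leaving out each library in turn gave 7 to 10 calls for PC9 DTP, 6 to 11 for combo against DTP (6 without DTP replicate 1), 18 to 20 for combo against control, 8 to 12 for AZD5153 and 6 to 9 for the interaction. H1975 gave 30 to 32, 13 to 19, 29 to 32, 30 to 34 and 30 to 33 in the same order, HCC2935 20 to 24, 4 to 6 and 20 to 24, and HCC827 0 to 1 (1 without combo replicate 3), 0 and 0 to 1 (1 without DTP replicate 3). The joint fit gave 19 to 26 loci for DTP and 2 to 10 for combo against DTP, with 2 without H1975 DTP replicate 1 or 3, H1975 combo replicate 1 or 3, PC9 DTP replicate 1 or 2 or PC9 combo replicate 1, 10 without HCC827 DTP replicate 3 and 9 without HCC827 combo replicate 3. The cause was not tested. Peaks covering at least 50% of a region were found in all 3 libraries at 0 to 12 regions per group. With peaks of a −log10 q of at least 5 only, HCC827 had 7 such regions in place of 11 (control), 1 in place of 6 (DTP) and 0 in place of 7 (combo). HCC2935 control had 20 in place of 32 and PC9 combo 16 in place of 26. In HCC827 the variance between libraries was 1.21 to 9.56 times counting noise.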

Other observations

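Other genes of the pathway list moved under AZD5153 alone. In H1975 the region nearest to the start of CXCL3, a neutrophil chemokine beside CXCL2, was higher (log2 1.95 ± 0.22, adjusted p = 1.12e-15), as were those of IL32 (log2 1.86 ± 0.22, adjusted p = 5.08e-14) and NFKBIB, an inhibitor of NF-kappa-B (log2 1.77 ± 0.20, adjusted p = 1.56e-15). CXCR1, a receptor of CXCL8, was lower (log2 -3.69 ± 0.23, adjusted p = 1.75e-37), as was CSF2 (log2 -1.77 ± 0.11, adjusted p = 7.39e-38). Regional medians were not removed from these H1975 values, and the region nearest to a start may lie far from it. In PC9 the region of IL1RN was lower (log2 -0.92 ± 0.14, adjusted p = 1.73e-09). In H1975 persisters CXCL6 (log2 2.19 ± 0.32, adjusted p = 3.77e-10) and CXCL16 (log2 1.17 ± 0.16, adjusted p = 3.4e-11) were higher and CXCR1 was lower (log2 -1.93 ± 0.17, adjusted p = 4.36e-23). OSMR, a gp130-family receptor, was higher in H1975 combo than in DTP (log2 1.03 ± 0.20, adjusted p = 2.63e-05), and CXCL3 in HCC2935 combo (log2 1.20 ± 0.28, adjusted p = 0.00371). With summed libraries the pathway calls of H1975 combo against DTP went from 13 higher and 3 lower to 3 and 1.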
